A study of Capra hircus with 12 samples.

Results

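This account describes the kallikrein-related peptidases KLK5, KLK7, KLK8, KLK10, KLK12, KLK13 and KLK14 in the secondary hair follicles of the goat (Capra hircus), the follicles that grow cashmere. The genes belong to a list of 8 symbols, chosen by their differences between stages and months in earlier results of these same values, and 7 of the 8 matched a row among the 20326 genes of the deposited tables. The eighth, SPINK5, is not analysed here. RNA came from follicles of goats aged 1.5 years, in 12 libraries: 4 of anagen, the growth stage (May and September), 4 of catagen, the regression stage (November and December), and 4 of telogen, the resting stage (February and March). Each month had 1 male and 1 female library. No month occurred in more than 1 stage, so a stage difference cannot be told apart from one of season or collection time. Sources used here do not say whether the same animals were sampled in several months, so p-values measure only the spread between these samples.

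Kallikreins are secreted serine proteases made as inactive precursors that become active when a short leading peptide is cut off. In human skin KLK5 and KLK7 cut the corneodesmosomes, the junctions that hold cornified cells together, and so release the outermost cells, and KLK5 can activate itself, KLK7 and KLK14. LEKTI, the product of SPINK5, inhibits these proteases, and in people its loss causes Netherton syndrome, in which both the skin barrier and the hair shaft are defective. In the RefSeq annotation of the goat assembly ARS1.2 the genes follow one another in the order KLK15, KLK4, KLK5, KLK6, KLK7, KLK8, KLK9, KLK10, a locus for a long noncoding RNA, KLK11, KLK12, KLK13 and KLK14.

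Values below are those of the deposited column headed TPM, an abundance per transcript length, so that levels of different genes can be set side by side. Their sums differed between libraries, from 904623 to 1127797, and they were used as deposited. KLK7, the chymotrypsin-like protease of this group, had the highest level, with a mean of 453 over the 12 libraries and rank 278 among the 16095 genes tested. KLK10, a family member whose substrates are poorly known, followed at 374 and rank 325. KLK12 averaged 66.0, KLK5 38.5, KLK8 14.3, KLK13 14.2 and KLK14 11.3. KLK7 exceeded KLK10 in 10 of 12 libraries, and KLK10 exceeded KLK12 in all 12. KLK12 exceeded KLK5 in 9 of 12 libraries, but in only 1 of the 4 telogen libraries. KLK8 and KLK13 could not be placed in order, since KLK8 was higher in 5 of 12 libraries, 4 of them in anagen. KLK13 was above KLK14 in 9 of 12 libraries. Together KLK7 and KLK10 made up 79.4% to 89.9% of the summed level of the 7 genes in each library.

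**Figure D1:**
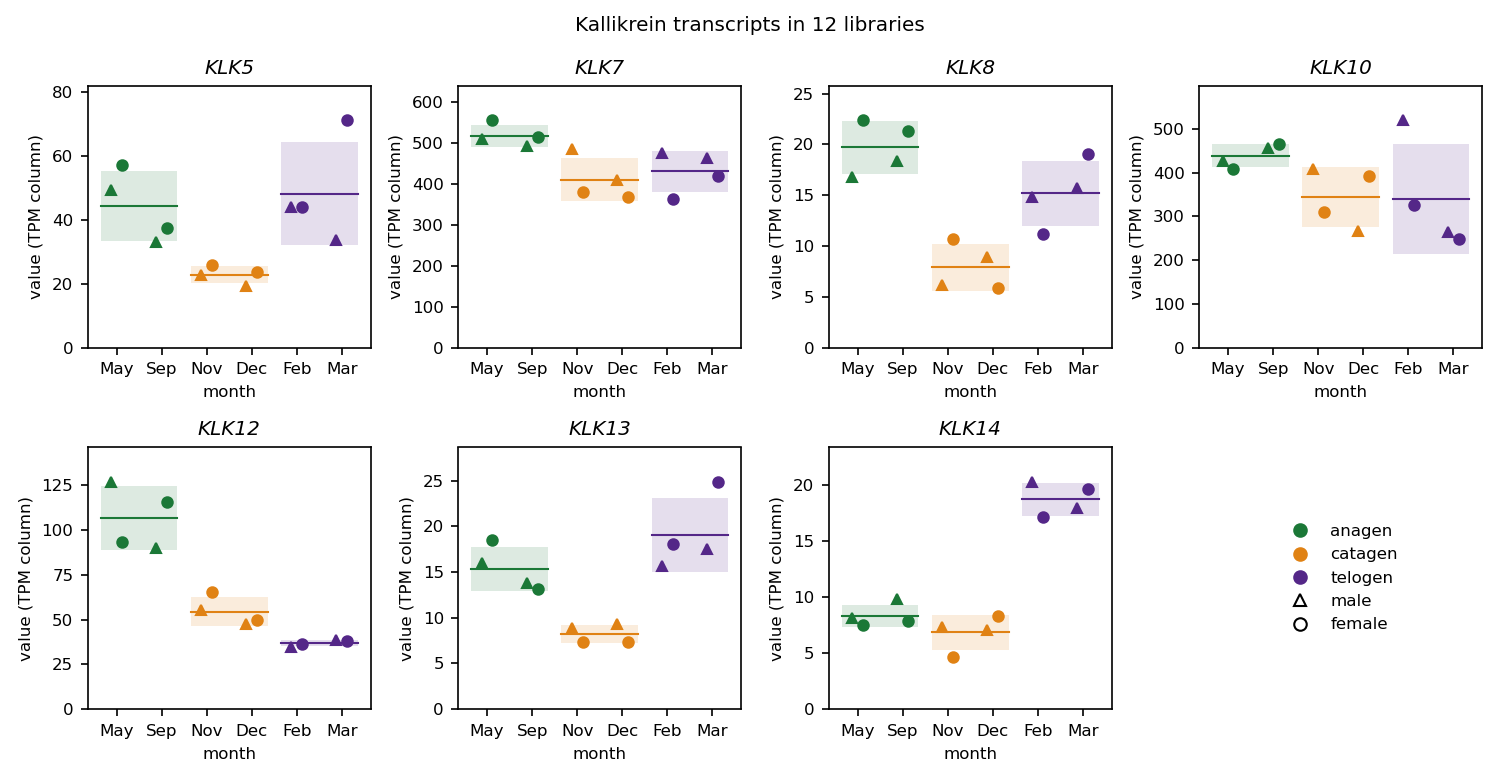
Value (TPM column, linear axes from 0) of each of the 7 kallikreins in the 12 libraries by month, with triangles for males, circles for females, lines for stage means and shaded bands for 1 SD (n = 4 per stage). KLK12 is highest in anagen, KLK14 is highest in telogen, and KLK5, KLK8 and KLK13 are lowest in catagen.

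Because the genes were listed for their pattern over the stages, their stage and month values are given as a description, without p-values. Differences between stages are on the scale of log2(value + 1), where a difference of 1 is about 2-fold, and come with the standard error (SE) of a limma model fitted to all 16095 genes. A gene is said to have passed where its p-value adjusted over all genes was under 0.05.

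KLK5, the trypsin-like protease that can start the activation cascade, was lowest in catagen. KLK5 in anagen measured 49.4 (May male), 57.1 (May female), 33.2 (September male) and 37.6 (September female). KLK5 in catagen measured 22.7 (November male), 26.0 (November female), 19.2 (December male) and 23.6 (December female). KLK5 in telogen measured 43.9 (February male), 44.0 (February female), 33.7 (March male) and 71.3 (March female). All 4 catagen values lay below every anagen and every telogen value, and anagen and telogen overlapped. The catagen mean was 22.9 ± 2.79 and the anagen mean 44.3 ± 10.9 (SD, n = 4 each), a difference of -0.90 (SE 0.210). The telogen mean of 48.2 ± 16.1 was higher than that of catagen by 1.00 (SE 0.210), and anagen differed from telogen by -0.10 (SE 0.210).

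KLK7, which cleaves corneodesmosin and desmocollin in human skin, varied least, with a highest value 1.53 times the lowest. KLK7 in anagen measured 511 (May male), 556 (May female), 491 (September male) and 514 (September female). KLK7 in catagen measured 486 (November male), 379.8 (November female), 409 (December male) and 369 (December female). KLK7 in telogen measured 476.5 (February male), 364 (February female), 463 (March male) and 419.7 (March female). The anagen libraries lay above all others, though the November male came within a few units of the lowest of them, and catagen and telogen overlapped. Catagen averaged 411 ± 52.7 and anagen 518 ± 27.1, a difference of -0.34 (SE 0.128). Telogen, at 431 ± 50.8, differed from catagen by 0.07 (SE 0.128), and anagen was higher than telogen by 0.27 (SE 0.128).

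KLK8, also called neuropsin, a trypsin-like protease of epidermis and brain, had its largest difference between catagen and anagen. KLK8 in anagen measured 16.8 (May male), 22.4 (May female), 18.3 (September male) and 21.35 (September female). KLK8 in catagen measured 6.14 (November male), 10.7 (November female), 8.89 (December male) and 5.90 (December female). KLK8 in telogen measured 14.8 (February male), 11.2 (February female), 15.7 (March male) and 19.05 (March female). Catagen was lowest without overlap, and telogen overlapped anagen at its upper end. The catagen mean of 7.92 ± 2.32 was 0.401 times the anagen mean of 19.7 ± 2.60, a log2 difference of -1.24 (SE 0.185). The telogen mean of 15.2 ± 3.23 was higher than that of catagen by 0.87 (SE 0.185), and anagen was higher than telogen by 0.37 (SE 0.185).

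KLK10 varied as much within telogen as its means did between stages. KLK10 in anagen measured 425 (May male), 409 (May female), 456 (September male) and 465 (September female). KLK10 in catagen measured 408 (November male), 310.1 (November female), 265 (December male) and 393 (December female). KLK10 in telogen measured 519.7 (February male), 327 (February female), 264 (March male) and 248 (March female). The February male held the highest value of all 12 libraries, while both March libraries and the December male held the lowest. Catagen averaged 344 ± 67.9 and anagen 439 ± 26.3, without overlap but by a gap of less than 1 unit, a difference of -0.37 (SE 0.212). Telogen, at 339.7 ± 125, differed from catagen by -0.06 (SE 0.212), and anagen differed from telogen by 0.43 (SE 0.212).

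KLK12, a trypsin-like protease that can activate itself, was the only one of the 7 that was lowest in telogen without overlap. KLK12 in anagen measured 127 (May male), 93.6 (May female), 90.15 (September male) and 116 (September female). KLK12 in catagen measured 55.1 (November male), 65.6 (November female), 47.4 (December male) and 49.6 (December female). KLK12 in telogen measured 34.5 (February male), 36.3 (February female), 38.45 (March male) and 38.0 (March female). The stages did not overlap at all, in the order anagen, catagen, telogen, and the telogen values were close together. The catagen mean was 54.5 ± 8.12 and the anagen mean 107 ± 17.8, a difference of -0.95 (SE 0.127). Telogen, at 36.8 ± 1.79, was lower than catagen by a log2 difference of -0.54 (SE 0.127), and anagen was higher than telogen by 1.50 (SE 0.127).

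KLK13, a trypsin-like protease best known from the epithelium of mouth and oesophagus in people, followed the course of KLK5. KLK13 in anagen measured 15.97 (May male), 18.5 (May female), 13.8 (September male) and 13.2 (September female). KLK13 in catagen measured 8.91 (November male), 7.39 (November female), 9.28 (December male) and 7.34 (December female). KLK13 in telogen measured 15.65 (February male), 18.0 (February female), 17.5 (March male) and 24.9 (March female). Catagen was lowest without overlap, and anagen and telogen overlapped. The catagen mean of 8.23 ± 1.01 and the anagen mean of 15.4 ± 2.41 differed by -0.82 (SE 0.145). Telogen averaged 19.0 ± 4.05, higher than catagen by 1.10 (SE 0.145), and anagen differed from telogen by -0.28 (SE 0.145).

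KLK14, a strongly active trypsin-like protease that can activate KLK5, had its high stage in telogen. KLK14 in anagen measured 8.12 (May male), 7.49 (May female), 9.79 (September male) and 7.89 (September female). KLK14 in catagen measured 7.33 (November male), 4.67 (November female), 7.05 (December male) and 8.34 (December female). KLK14 in telogen measured 20.3 (February male), 17.1 (February female), 17.9 (March male) and 19.6 (March female). Telogen stood apart from the other 8 libraries, while catagen and anagen overlapped. The telogen mean was 18.7 ± 1.47 and the catagen mean 6.85 ± 1.55, a difference of 1.35 (SE 0.141). Anagen, at 8.32 ± 1.01, was lower than telogen by a log2 difference of -1.09 (SE 0.141), and catagen differed from anagen by -0.27 (SE 0.141).

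**Figure D2:**
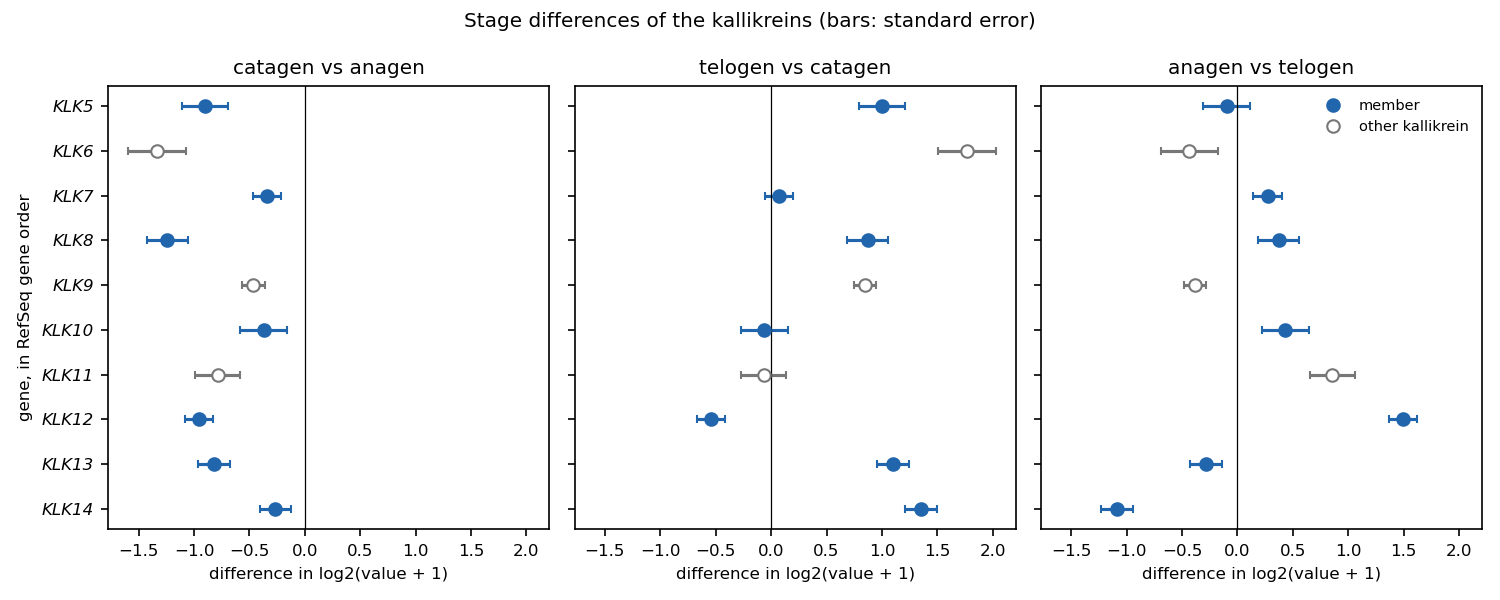
Difference in log2(value + 1) between stages for the 7 kallikreins (filled points) and for KLK6, KLK9 and KLK11 (open points), in RefSeq gene order, with bars of 1 SE (n = 4 libraries per stage). Every difference of catagen from anagen is below 0, whereas telogen against catagen ranges over the 7 from -0.54 for KLK12 to 1.35 for KLK14.

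Set side by side, the 7 genes had a median difference of -0.82 for catagen against anagen, where the median of all genes tested was -0.02. KLK8 and KLK12 passed, 2 of 7, against 0.0559% of all genes (9 of 16095, each lower in catagen), and 6 of the 7, all but KLK14, were lower in catagen without overlap, against 3.63% of all genes. For telogen against catagen the median was 0.87 and that of all genes 0.07, and 5 of 7 passed against 43.6% of all genes. KLK5, KLK8, KLK13 and KLK14 were higher in telogen, against 24.5% of all genes, and KLK12 was lower, against 19.0%. These 5 were also the ones without overlap (4 higher against 19.9% of all genes, 1 lower against 15.9%). For anagen against telogen the median was 0.27 and that of all genes -0.07. KLK12, higher in anagen (23.7% of all genes), and KLK14, lower (29.2%), passed, 2 of 7 against 52.9%. KLK7 and KLK12 were higher and KLK14 lower in anagen without overlap (20.1% and 23.2% of all genes). Nothing is read from these counts, since the genes were listed for such differences. In the first comparison neither gene passed without the May male, September female, December male or December female, and 1 passed without the May female, September male, November male, February male or March male. KLK13 passed as well without the March female, and KLK10 passed for anagen against telogen without the February male.

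Catagen levels of the 7 genes summed to 855 ± 99.7, against 1151 ± 27.0 in anagen and 908 ± 145 in telogen (SD, n = 4 each). The telogen sums were 817 (February female), 841 (March female), 850 (March male) and 1125 (February male, which had the highest KLK10). Within a library the ratio of 2 genes does not depend on the library's scaling. The ratio of KLK12 to KLK14 was 9.21 to 15.7 in anagen, 5.95 to 14.1 in catagen and 1.70 to 2.14 in telogen, so that telogen lay apart and the other stages overlapped. KLK13 relative to KLK12 averaged 0.15 in anagen, 0.15 in catagen and 0.51 in telogen. KLK7 relative to KLK10 stayed between 0.92 and 1.76 in all 12 libraries.

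**Figure D3:**
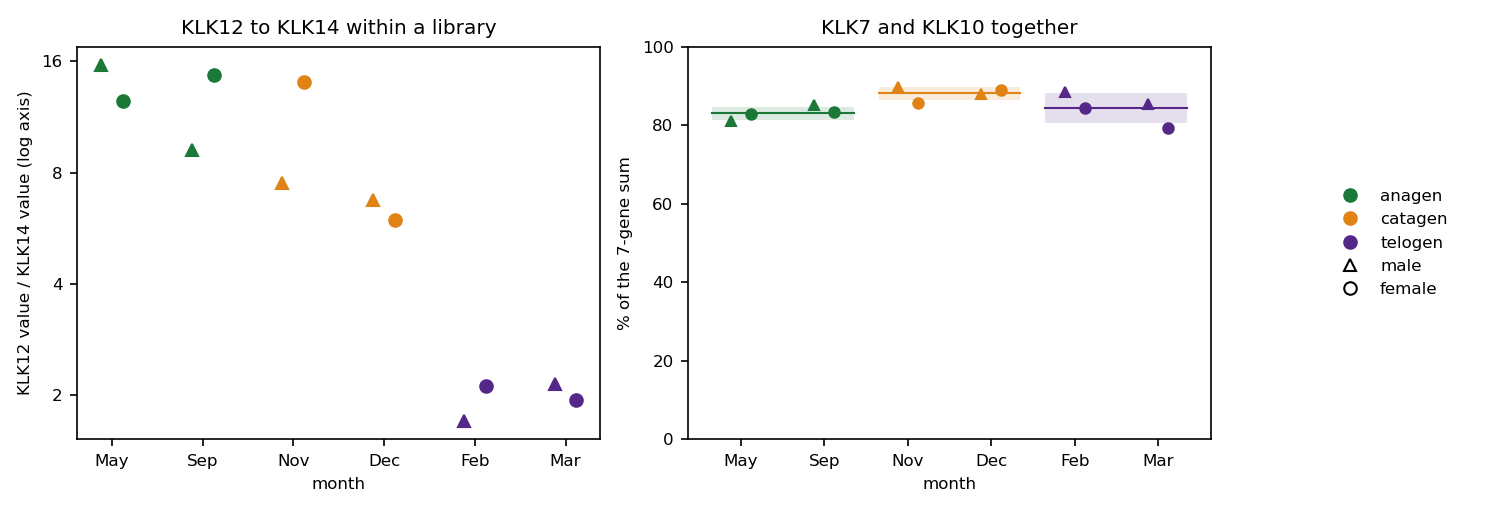
Left, the ratio of the KLK12 value to the KLK14 value in each library by month on a log axis (triangles male, circles female), which is at most 2.14 in the 4 telogen libraries and at least 5.95 in the others. Right, KLK7 and KLK10 together as a percentage of the 7-gene sum, with stage means as lines and 1 SD as bands (n = 4 per stage), from 79.4% to 89.9%.

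By month, KLK12 means were 110.4 in May, 103 in September, 60.4 in November, 48.5 in December, 35.4 in February and 38.2 in March. Ordered by these means, neighbouring months did not overlap from September down to February, and May overlapped September. KLK14 averaged 7.80 in May, 8.84 in September, 6.0 in November, 7.70 in December, 18.7 in February and 18.8 in March. Its libraries overlapped between neighbouring levels except between February and September. KLK5 had its 2 highest monthly means in May (53.3) and March (52.5) and its lowest in December (21.4). Between the 2 months of a stage none of the 7 passed, against 0.137% of all genes for September against May, 0.0% for December against November (588 with unadjusted p under 0.05) and 0.00621% for March against February. Across the borders of stages none passed for November against September (0.0186% of all genes). KLK5, KLK13 and KLK14 passed, higher, for February against December (8.9% of all genes were higher, and 16.6% passed in all), and KLK12, higher, and KLK14, lower, for May against March (27.4%). In a test over all 6 months 5 of the 7 passed, all but KLK7 and KLK10, against 32.7%. Nothing is read from these counts either. None of the 7 passed for February against December without the December male, December female or February male, and 1 passed without the February female. For May against March 1 passed without the May female, and 3 without the February male, February female or March female. Over all months 4 passed without the May male, May female, December male or February male.

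Comparisons between males and females, and of the sex difference between stages, did not enter the choice of the genes and were tested. None of the 7 kallikreins passed in male against female libraries with the month as a block (limma, Benjamini-Hochberg adjustment), against 0.0559% of all genes (9 called, and 1185 with unadjusted p under 0.05). At an unadjusted p under 0.05 there was 1 of the 7, KLK5, which had the largest difference. KLK5 averaged 33.7 ± 11.7 in males and 43.3 ± 18.4 in females (SD, n = 6 each), with a lowest, median and highest value of 19.2, 33.4 and 49.4 in males and 23.6, 40.8 and 71.3 in females. The female library was higher in 6 of 6 months, by under 1 unit in February and most in March. The difference of males from females was -0.32 (SE 0.129, 95% interval -0.61 to -0.02, limma adjusted p = 0.660), so KLK5 failed the correction. For the other 6 genes the differences lay between -0.12 (KLK8) and 0.14 (KLK7), with adjusted p from 0.740 to 0.930. The 95% interval reaching farthest from 0 was that of KLK8, with a lower bound of -0.48. In 21 limma tests of whether the sex difference changed between stages none passed (1 with unadjusted p under 0.05), against 0.0% of all genes for catagen against anagen, 0.0186% for telogen against catagen and 0.00621% for anagen against telogen. The smallest limma adjusted p was 0.367, for KLK13 in telogen against catagen (-0.61, 95% interval -1.20 to -0.02), the comparison in which 2119 of all genes had an unadjusted p under 0.05.

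The rest of the kallikrein cluster was tested on the same fit. This list and those below were chosen with earlier results of these data known. Their p-values are therefore not independent of that choice. Of 9 further kallikrein symbols 6 matched a row and 4 were high enough to test. None of the 4 passed for catagen against anagen (3 with unadjusted p under 0.05; limma), where 0.0559% of all genes passed and 2519 of 16095 had an unadjusted p under 0.05. KLK6, KLK9 and KLK11 were each lower in catagen without overlap, as were 6 of the 7 genes above, against 3.63% of all genes. KLK9 averaged 10.2 in catagen and 14.4 in anagen, and KLK11 averaged 91.1 and 165. KLK6, a trypsin-like protease known from brain and skin, rose in telogen to 42.7 ± 17.7, against 11.4 ± 2.59 in catagen (SD, n = 4 each; log2 difference 1.77, SE 0.260, limma adjusted p = 0.0006). Its difference of catagen from anagen, where it averaged 30.9 ± 9.92, did not pass (-1.33, SE 0.260, adjusted p = 0.160). KLK9 rose in telogen to 19.1 ± 2.01, against 10.2 ± 1.04 in catagen (0.85, SE 0.101, adjusted p = 0.0003), and fell in anagen relative to telogen (-0.38, adjusted p = 0.0069). KLK11 was higher in anagen, at 165 ± 58.5 against 86.8 ± 9.37 in telogen (0.86, SE 0.202, adjusted p = 0.0037). Its highest values were in May: KLK11 measured 236.5 in the May male and 189 in the May female and 114 in the September male and 119.6 in the September female. These calls were kept under all 20 alternatives. KLK4 did not pass in any stage comparison, and the highest value of KLK4 in any library was 1.71, that of KLK15 1.00 and that of KLKB1, plasma prekallikrein, 0.88.

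**Figure D4:**
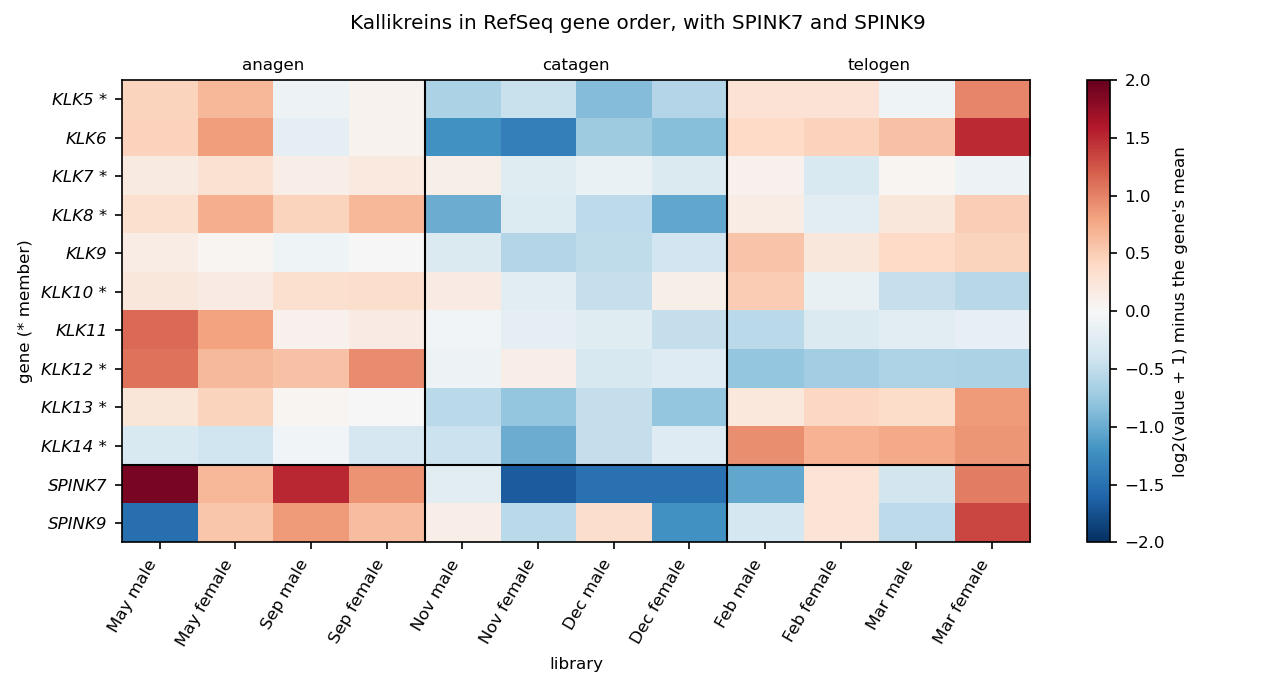
Difference of log2(value + 1) from the gene's own mean (colour scale from -2 to 2) in each library, for the kallikreins in RefSeq gene order (asterisks mark the 7) and the inhibitors SPINK7 and SPINK9. The catagen block is low for KLK5, KLK6, KLK8 and KLK13, KLK12 is low in the telogen block and KLK14 is high in it.

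KLK5, KLK6 and KLK13 varied together over the 12 libraries, which share stages, so the correlations that follow are a description. Pearson's r of log2(value + 1) was 0.97 between KLK6 and KLK13, 0.91 between KLK5 and KLK6 and 0.90 between KLK5 and KLK13. Around the stage means, which removes the stage pattern, r was 0.85, 0.69 and 0.66 for these pairs. Among the 21 pairs of the 7 genes 16 had a positive r, from -0.64 for KLK12 and KLK14 to 0.90, with a median of 0.36. Around the stage means several of the positive pairs fell below 0. KLK8 and KLK14 went from 0.28 to -0.52, and KLK5 and KLK14 from 0.54 to -0.22. Other positive pairs stayed above 0, such as KLK5 and KLK8 (from 0.77 to 0.30), and KLK12 and KLK14 stayed negative (-0.62). Outside the 7, the 3 genes most like each of them were looked for among 10654 genes of mean value at least 5. For KLK5 they were ALOXE3, a lipoxygenase of the epidermal barrier, SLC16A6 and DDX17, each with r of 0.92. For KLK13 they were KLK6, SCNN1G, a subunit of the epithelial sodium channel (0.95), and CREB3L1 (0.93). For KLK8 they were PLIN3 (0.91), RNF14 (0.87) and SLC25A29 (0.86), and for KLK7 NNAT (0.94), RHBDL2 (0.88) and TUBD1 (0.87). KLK12 was most like TOR3A (0.97), HEMK1 (0.96) and MXD3 (0.95), and KLK14 most like ASXL2, LRRC8D and ZFP37 (each 0.98). KLK10 had the least close partners, TMEM265 (0.82), LGALSL (0.78) and KRT23 (0.78), a keratin. Around the stage means r with these partners ranged from 0.35 (KLK8 and SLC25A29) to 0.89 (KLK12 and TOR3A).

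Inhibitors of serine and other proteases, and members of their families, were taken from a list of 26 symbols, of which 15 matched a row and 12 were tested. By limma none passed for catagen against anagen (2 with unadjusted p under 0.05; median difference -0.23), 2 rose and 4 fell in telogen against catagen (median -0.25), and 6 were higher and 1 lower in anagen against telogen (median 0.52). In catagen against anagen 0.0559% of all genes passed (2519 of 16095 with unadjusted p under 0.05). Of all genes 24.5% rose and 19.0% fell in telogen against catagen, and 23.7% were higher and 29.2% lower in anagen against telogen, with medians of -0.02, 0.07 and -0.07 in the order of the comparisons here. CST6, cystatin M/E, an inhibitor of the cathepsins V and L and of legumain in skin, was far the most abundant. It fell in telogen to 5593 ± 669, against 10262 ± 1197 in catagen (SD, n = 4 each; -0.88, SE 0.287, limma adjusted p = 0.026). This call was lost without the November male, November female, December male or February female, with no filter and with month means as replicates, and its adjusted p ranged up to 0.167 over the alternatives. SPINT2, which inhibits the membrane proteases that act upstream of kallikreins, fell in telogen by 0.72 (SE 0.167, adjusted p = 0.0049), and SPINT1, its relative, fell by 0.44 (SE 0.121, adjusted p = 0.0113). SERPINB5, maspin, fell by 0.37 (adjusted p = 0.0211), a call lost without the December male, February female or March female, with quantile normalization, with rescaling and with month means as replicates (up to 0.105). In anagen against telogen SPINT2 was higher by 1.06 (SE 0.167, adjusted p = 0.0004), SPINT1 by 0.61 (adjusted p = 0.0014) and CST6 by 0.98 (adjusted p = 0.0122), the last not passing with month means as replicates (0.113). SERPINB12 was higher by 0.97 (adjusted p = 0.0109), a call lost without both May libraries (0.0772).

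SPINK7, a Kazal-type inhibitor from the family of SPINK5, had the widest swings. SPINK7 in anagen measured 231 (May male), 97.2 (May female), 176 (September male) and 114 (September female). SPINK7 in catagen measured 52.4 (November male), 18.5 (November female), 21.1 (December male) and 21.1 (December female). SPINK7 in telogen measured 29.2 (February male), 73.6 (February female), 47.35 (March male) and 125 (March female). Catagen lay below anagen without overlap, and telogen overlapped both. The difference of catagen from anagen was -2.46 (SE 0.426) but did not pass (limma adjusted p = 0.0924). SPINK7 was higher in telogen than in catagen by 1.19 (adjusted p = 0.0381), a call lost without the November female, December male, December female, February female or March female (up to 0.113). It was higher in anagen than in telogen by 1.27 (adjusted p = 0.0236), a call lost without the May male, both May libraries, September male, February male or March male (up to 0.0807). SPINK9, which inhibits KLK5 in human palms and soles, passed in no stage comparison. Its values ranged from 7.24 in the May male to 58.7 in the March female, and the ratio of KLK5 to SPINK9 ranged from 0.66 to 6.82 over the 12 libraries.

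Proteases that can activate kallikrein precursors were listed by 13 symbols, of which 9 matched a row and 6 were tested. By limma none passed for catagen against anagen, adjusted or at an unadjusted p under 0.05 (median -0.19), and 1 rose in telogen against catagen (median -0.06), where 24.5% of all genes rose. Of all genes 0.0559% passed for catagen against anagen, and 2519 of 16095 had an unadjusted p under 0.05. PRSS8 (prostasin) and ST14 (matriptase) passed in no stage comparison, with telogen differing from catagen by 0.19 (SE 0.106) and -0.19 (SE 0.109). TMPRSS4, a membrane protease, rose in telogen to 41.3 ± 17.3, against 19.1 ± 4.56 in catagen (SD, n = 4 each; 1.01, SE 0.282, limma adjusted p = 0.0126). PLAU, urokinase, was higher in anagen than in telogen by 0.66 (SE 0.213, adjusted p = 0.0202), a call lost without the February female, the March female or both May libraries (up to 0.110).

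Other proteases of cornified cells were listed by 14 symbols, and 13 were tested. By limma none passed for catagen against anagen (2 with unadjusted p under 0.05; median -0.18), 7 fell and 1 rose in telogen against catagen (median -0.48; of all genes 19.0% fell and 24.5% rose), and 9 were higher and 1 lower in anagen against telogen (median 0.73; of all genes 23.7% and 29.2%). Among all genes 0.0559% passed for catagen against anagen, and 2519 of 16095 had an unadjusted p under 0.05. CTSV, cathepsin V, fell in telogen to 352 ± 72.8, against 623 ± 89.4 in catagen (-0.84, SE 0.184, limma adjusted p = 0.0037). CTSD, cathepsin D, fell by 0.59 (adjusted p = 0.0116) and BLMH, bleomycin hydrolase, which degrades filaggrin, by 0.56 (adjusted p = 0.0117). CTSC, which activates granule proteases, fell by 0.53 (adjusted p = 0.0205), a call lost without the November, February or March female. CASP14, the caspase of cornifying cells, rose by 0.63 (adjusted p = 0.0214), a call lost without the December male, February female or March female. ASPRV1, which cleaves profilaggrin, was higher in anagen, at 315 ± 99.3 against 132 ± 25.4 in telogen (1.20, SE 0.265, adjusted p = 0.0025).

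Proteins that kallikreins cut or act on in skin, together with PSORS1C2, were listed by 17 symbols, with 13 matched and 12 tested. The counts and medians include PSORS1C2. By limma none passed for catagen against anagen, adjusted or at an unadjusted p under 0.05 (median -0.03), 3 rose and 2 fell in telogen against catagen (median -0.01), and 3 were higher and 4 lower in anagen against telogen (median 0.02). The counts of the last 2 comparisons are near the shares of all genes that passed, 43.6% and 52.9%. For catagen against anagen that share was 0.0559% (2519 of 16095 with unadjusted p under 0.05). DSG1, desmoglein 1, a corneodesmosomal cadherin, passed in no stage comparison (814 ± 66.4 in anagen, 889 ± 54.2 in catagen and 802 ± 107 in telogen), nor did F2RL1, the receptor that KLK5 and KLK14 can activate. For anagen against telogen the genes of highest mean that passed went both ways. CDSN, corneodesmosin, was higher in anagen, at 419 ± 125 against 232 ± 52.2 in telogen (0.83, SE 0.257, limma adjusted p = 0.016), a call lost without the May female or both May libraries (up to 0.187 over the alternatives). DSC1, desmocollin 1, was lower in anagen, at 333 ± 35.6 against 403 ± 19.0 in telogen (-0.28, SE 0.111, adjusted p = 0.0465). Its call was kept without the May male, November female or March male, but lost on leaving out any other library or both May libraries, with rescaling and with month means (up to 0.144). FN1, fibronectin, was lower in anagen, at 49.6 ± 9.57 against 66.5 ± 7.94 in telogen (-0.43, adjusted p = 0.021), a call lost without the May male, May female, both May libraries or March female and with month means (up to 0.259). PSORS1C2 and IGFBP3 were lower in anagen by log2 differences of -1.55 and -0.74 (adjusted p = 0.0009 and 0.0027). Between telogen and catagen, PSORS1C2, listed as the neighbour of CDSN in the human genome and not as a known substrate, rose in telogen to 949.9 ± 392, against 395 ± 51.6 in catagen (1.17, SE 0.287, adjusted p = 0.0064). IGFBP3, a binding protein of insulin-like growth factors, rose by 0.81 (adjusted p = 0.0026). SMPD1, acid sphingomyelinase, fell by 0.91 (adjusted p = 0.0016) and LAMB3, a laminin chain, by 0.75 (adjusted p = 0.0061).

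In RNA from whole follicles, fewer cells of a type and less RNA per cell cannot be told apart. A list of 28 genes of the outer epidermal layers, the cells best known for kallikreins, had 24 tested. For catagen against anagen none passed by limma, where 0.0559% of all genes passed. At an unadjusted p under 0.05 there were 4, against 2519 of all 16095 genes. The differences of 3 of the 24 were above 0 and the median was -0.23. In telogen against catagen 10 rose and 1 fell with a median of 0.29, where 43.6% of all genes passed (24.5% rose and 19.0% fell), KRT1 among those that rose (1.12, limma adjusted p = 0.0187), a call lost without the November female or the March female (up to 0.0597). Their summed level was 6106 to 9419 in anagen, 4968 to 7023 in catagen and 5355 to 9639 in telogen. The telogen sums were 8418 and 9639 in the February and March females and 5407 and 5355 in the males. The March female, with the highest KLK5, KLK6 and KLK13, had the highest sum. Both telogen males, with sums within the catagen range, had KLK13 at 15.65 and 17.5, against at most 9.28 in catagen. In the interaction of sex and stage for telogen against catagen none of the 24 passed (limma). At an unadjusted p under 0.05 there were 8, against 2119 of all 16095 genes. Inner root sheath genes, whose sum was 16787 to 21339 in anagen and 12754 to 19294 in catagen, were at 3785 to 12567 in telogen. There the February and March females had 8254 and 3785, and the males 10747 and 12567. Sebaceous genes summed to 1024 to 1377 in anagen, 1087 to 1308 in catagen and 1194 to 2092 in telogen. Their telogen sums were 1825 and 2092 in the February and March females and 1194 and 1243 in the males. Of 9 immune genes tested 7 rose in telogen against catagen (median 0.68), and their sum was 90.3 to 133 in anagen, 91.2 to 106 in catagen and 134 to 303 in telogen, highest in the March female. Of 7 melanocyte genes 3 rose in telogen (sums 43.5 to 66.1 in anagen, 49.1 to 63.0 in catagen and 60.4 to 94.8 in telogen). Melanocyte sums in telogen were 94.75 and 89.6 in the February and March females and 64.55 and 60.4 in the males. Of 8 hair shaft genes 5 fell (sums 1157 to 1405 in anagen, 977 to 1499 in catagen and 333 to 1010.4 in telogen). Hair shaft sums in telogen were 635 and 333 in the February and March females and 774 and 1010.4 in the males. In the interaction of sex and stage for telogen against catagen all 8 had an unadjusted p under 0.05, and none passed (limma). Skeletal muscle genes summed to 254 and 259 in the May male and female and to no more than 152 elsewhere. The part of these cells in the kallikrein differences was not tested.

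Libraries had 18637 to 20099 genes above 0, and their deposited values summed to between 904623 and 1127797. Telogen stood apart on the leading principal component (52.1% of the variance), with scores of 52.4 to 56.4 in 3 telogen libraries, 22.97 in the March male and -35.7 to -6.82 in anagen and catagen. Without the March male 5 of the 7 kallikreins passed for telogen against catagen. Nothing is read from this count, as from those above.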

How the data were processed

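Total RNA from goat secondary hair follicles was sequenced in 12 libraries with standard Illumina protocols, per the labels' protocols. The submitters' processing notes name kallisto 0.46.1 and sleuth 0.30.0, and the genome build is not given in the sources used here. The authors deposited 1 value per gene and library in a column headed TPM, whose sums differ between libraries, so it was treated as a normalized signal and not as counts. Read depth is unknown, no count interval could be given, and how reads shared between similar kallikreins were split was not examined. Symbols were taken by gene ID from RefSeq (20294 of 20326 IDs matched). The 16095 genes that reached 1 in 2 or more libraries were tested on log2(value + 1) with limma 3.58.1 (R 4.3.3), with a mean-variance trend and Benjamini-Hochberg adjustment over all genes, after a check on simulated data. Stages and months were fitted over all 12 libraries, male against female with the month as a block, and the interaction of sex and stage in a model of both. Members and lists were chosen with earlier results of these data known. Every listed kallikrein with a row is described. From the other lists counts are given, with up to 5 genes of highest mean among those that passed; genes that did not pass were named for their known role. Likeness took the 3 genes with the highest r. Alternatives were quantile normalization, rescaling each library to the same sum, an added constant of 0.1, no filter, the replicate number as a block, month means as replicates, no month block, no trend, leaving out both May libraries and leaving out each library.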

Additional observations from a re-analysis of the deposited data

How the results depend on the processing

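Between stages, the kallikrein differences that passed (2, 5 and 2 of 7) kept their direction under every alternative run. The genes were listed for such differences, so these counts show only how the calls depend on the processing. KLK10 in telogen against catagen and KLK5 in anagen against telogen, which had not passed, changed sign in 6 and 2 of 20 alternatives. In telogen against catagen and in anagen against telogen the genes that passed did so in 20 of 20 alternatives, while for catagen against anagen KLK12 passed in 14 and KLK8 in 9 of 20, and none of the 7 passed with month means as replicates (0) or without both May libraries (0, with 4 genes called in all). Other counts of genes called that moved by over 1.5 times were 12 for September against May with an added constant of 0.1, 0 and 3 for March against February with rescaling and without the trend, and 5 and 1 for November against September with a constant of 0.1 and with the replicate block. The interaction of sex and stage gave 5 (rescaled) and 1 (constant of 0.1) genes for telogen against catagen, and 0 (constant of 0.1), 2 (no filter) and 2 (no trend) for anagen against telogen. For telogen against catagen rescaling gave 4369 genes higher and 2052 lower, against 3948 and 3063 as deposited, and for anagen against telogen 3155 and 4732, against 3811 and 4701.

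Leaving out 1 library at a time gave 3 to 13 genes for catagen against anagen (0 to 3 of the 7 kallikreins), 5257 to 7545 for telogen against catagen (5 to 5) and 7337 to 8668 for anagen against telogen (2 to 3). It gave 8 to 33 for September against May, 0 to 3 for December against November, 0 to 12 for March against February and 0 to 5 for November against September. For February against December it gave 19 to 4468 (0 to 3 kallikreins), with 0 of the 7 without the December male, December female or February male and 1 without the February female. It gave 225 to 5977 for May against March (1 to 3), 1 without the May female, and 2344 to 7221 over all months (4 to 5). Male against female gave 6 to 8 genes, and the interactions 0 to 2, 0 to 8 and 0 to 4. The sex difference of KLK8 then ranged from -0.24 to 0.0040, of KLK10 from -0.011 to 0.24, of KLK12 from -0.14 to 0.015 and of KLK13 from -0.12 to 0.042, changing sign without the November, February, September and March libraries in turn. The causes were not tested.

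The replicate number marks sex, and the labels give nothing further that same-numbered libraries share. The deviations from the stage means of same-numbered libraries correlated with a median r of 0.0505 (from -0.154 to 0.241, 24 pairs). For differently numbered libraries the median r was -0.0284 (from -0.296 to 0.327, 24 pairs). Deviations sum to 0 within a stage, which ties these sets of pairs together, so the values cannot show whether animals were shared. With the replicate block 9 genes were called for catagen against anagen, 7074 for telogen against catagen and 8624 for anagen against telogen, and no count of the 7 kallikreins changed.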
